A study of Schizosaccharomyces pombe with 6 samples.

Results

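Dsk1 is a fission yeast kinase of SR proteins, and 8 genes around it are described here. They are the kinase genes dsk1, lkh1 (also named kic1) and prp4, and the RNA-binding protein genes srp1, srp2 and rsd1. The others are prp2 and uaf2, which encode the large and small subunits of the splicing factor U2AF. All 8 were taken by symbol from the 5160 entries of the deposited gene table. The rule used no measured values, though the genes were chosen with earlier results of these data known. Poly(A) RNA of whole Schizosaccharomyces pombe cells was sequenced in 6 libraries, 3 of a dsk1 mutant and 3 of the wild type (genotype WT in the labels). A deletion is written in the series text and a knockdown in the genotype label of the mutant, and no further allele, strain or clone is given for either group. Nothing in the labels states that replicates were separate cultures, so p-values measure the spread between these libraries, which may be technical. As RNA of whole cultures was measured, fewer cells that express a gene and less RNA per cell cannot be told apart.

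SR proteins bind pre-mRNA through RNA recognition motifs and carry stretches of alternating arginine and serine, the RS domain. Kinases phosphorylate the serines of these stretches, which affects where the proteins reside in the cell and how they act in splicing and mRNA export. Dsk1 belongs to the SRPK family of such kinases, Lkh1 to the LAMMER (Clk) family, and Prp4 is a kinase of the spliceosome itself. U2AF marks the 3' end of introns, where its large subunit binds the pyrimidine-rich tract and its small subunit the terminal AG. Fission yeast U2AF large subunit and Srp2 are known substrates of Dsk1.

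The RS stretches of srp1, rsd1, prp2 and srp2 are shown first, since they are the kind of sequence that SR protein kinases act on. Each line is the stretch of 20 codons with the most RS and SR dipeptides in the coding sequence, read 5' to 3' on the coding strand from RefSeq assembly ASM294v3. Capitals mark the codons of every arginine or serine that is part of an RS or SR dipeptide.

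srp1: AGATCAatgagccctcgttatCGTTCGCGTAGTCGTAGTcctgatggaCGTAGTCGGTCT

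rsd1: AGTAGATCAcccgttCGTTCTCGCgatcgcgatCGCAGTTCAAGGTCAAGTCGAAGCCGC

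prp2: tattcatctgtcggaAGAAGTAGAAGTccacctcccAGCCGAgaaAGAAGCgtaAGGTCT

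srp2: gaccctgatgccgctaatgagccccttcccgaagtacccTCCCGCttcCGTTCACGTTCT

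The srp1 stretch, codons 137 to 156 on chromosome II (plus strand), holds 9 such dipeptides. The rsd1 stretch, codons 142 to 161 on chromosome I (minus strand), holds 10. The prp2 stretch, codons 92 to 111 on chromosome II (plus strand), holds 6, and that of srp2, codons 169 to 188 on chromosome I (minus strand), holds 4. Over the whole protein the sequence encodes 43 RS or SR dipeptides in Rsd1 (603 residues), 22 in Srp1 (275 residues), 17 in Prp2 (517 residues) and 12 in Srp2 (365 residues). Of the 5103 genes of the table that could be translated, 0.0392% encode as many as rsd1, 0.627% as many as srp1, 1.86% as many as prp2 and 5.02% as many as srp2. The small U2AF subunit gene uaf2 encodes 2, which 67.3% of genes match, and the kinase genes dsk1, lkh1 and prp4 encode 4, 4 and 6. The RNA-binding members thus fall into 4 RS-rich ones and Uaf2.

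The members also differ in gene structure in RefSeq. The srp2 gene has 9 introns, rsd1 has 6, srp1 has 2 and prp4 has 1, while dsk1, lkh1, prp2 and uaf2 have none. Lengths implied by the deposited counts and FPKM (fragments per kilobase of transcript, scaled to library size) were close to the RefSeq exon lengths for 7 of them, for example 3190 against 3128 bases for dsk1 and 854 against 842 bases for uaf2. For rsd1 the implied length was 2673 bases against 2273 in RefSeq, so its FPKM rests on a longer model than that of RefSeq.

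The libraries held 19020530, 17517270 and 15700362 counts in the dsk1 mutant and 16424139, 16621420 and 18039520 counts in the wild type. On the first principal component the mutant libraries lay at 13.1 to 19.6, the other two wild-type libraries at -9.54 and -2.29, and wild-type replicate 2 stood apart at -37.9. Values of the members without that library are therefore given with the results. The ura4 gene, a common selectable marker, had 1957, 1392 and 1710 counts in the mutant libraries and 0 in each wild-type library, and the labels name no ura4 allele.

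The transcript of dsk1 itself was nearly lost. It stood at 13.7, 11.3 and 11.9 CPM (counts relative to library size, scaled by the TMM method) in the mutant libraries, against 99.4, 102 and 99.96 CPM in the wild type. All mutant libraries were low and close to each other, and the groups did not overlap. The log2 fold change, mutant over wild type, was -3.03 (SE 0.13, 95% interval -3.33 to -2.73, edgeR adjusted p = 1.34e-04), an 8.17-fold decrease. In the mutant libraries 13.6%, 11.2% and 11.8% of the wild-type mean was left. The annotated dsk1 transcript on chromosome II has no intron and ends in 1374 bases after the stop codon, 43.9% of its length. The gene on the other strand, lsc1, which encodes a cyclin partner of the kinase Lsk1, overlaps dsk1 over 1066 bases, all of them within that last stretch. Gene counts do not show where along dsk1 the remaining reads lie, and the labels do not say which bases were removed.

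**Figure D1:**
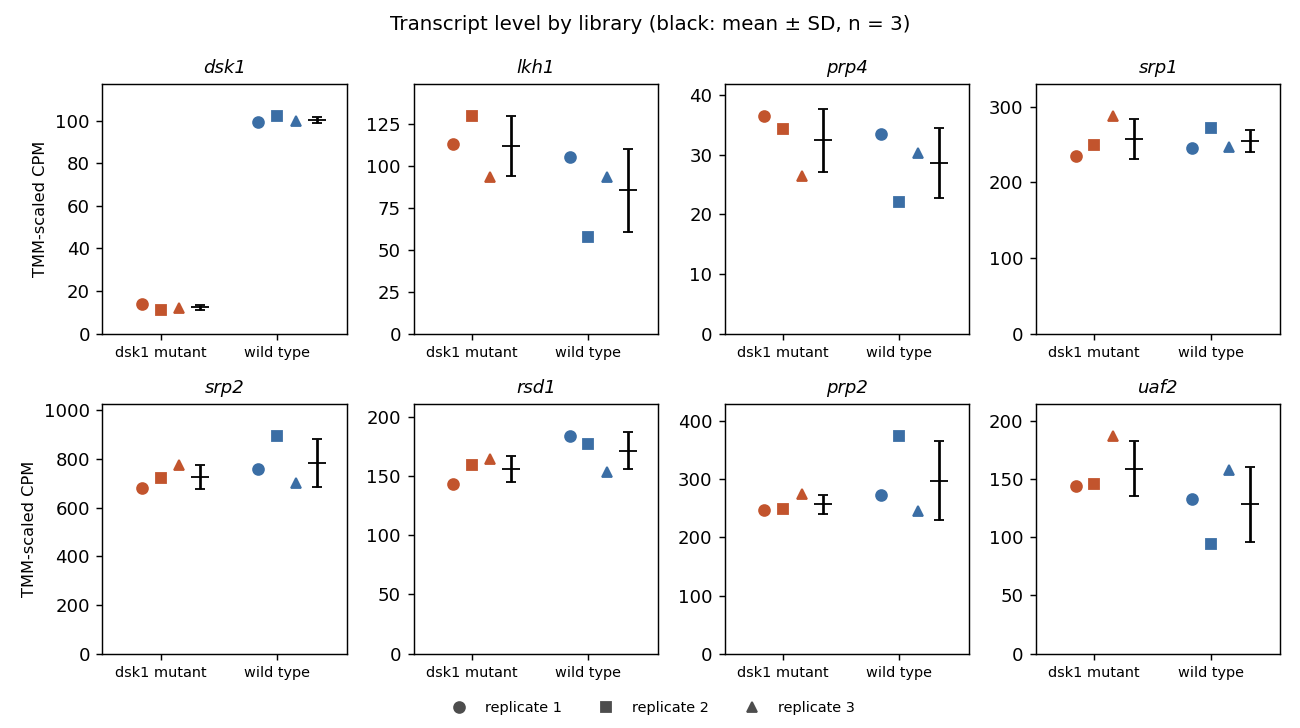
TMM-scaled CPM of the 8 genes in each library (y axis, from 0), with the dsk1 mutant in orange on the left and the wild type in blue on the right of each panel; the marker shape gives the replicate and the black bar the mean ± SD (n = 3). Only dsk1 separates the groups, at 11.3 to 13.7 CPM in the mutant against 99.4 to 102 CPM in the wild type, and wild-type replicate 2 (square) is the lowest library for lkh1, prp4 and uaf2 and the highest for prp2 and srp2.

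In the fit over all 4987 genes tested, all 8 members passed the filter on low counts. Of these, dsk1 was called lower, 0 were called higher, and the other 7 did not pass at an adjusted p under 0.05. The background was 1.58% of all tested genes called lower and 0.441% called higher. Of the 8, only dsk1 had groups that did not overlap, against 32.1% of all tested genes. None of the other 7 reached an unadjusted p under 0.05 with edgeR, which 9.2% of all tested genes did as higher and 13.5% as lower. With DESeq2, which called 4.01% of genes higher and 7.1% lower, 0 of these 7 were called. Limma called 0 of these 7 as well, where it called 16 to 20 genes higher and 73 to 76 lower over the whole table. Among these 7, 4 had a log2 fold change above 0 and 3 below, and the median size of the change was 0.18 against 0.23 over all genes tested.

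Of the kinase genes, lkh1 had the widest interval among the members. Lkh1 is known in fission yeast for mutants that flocculate. Its transcript was at 113, 130 and 93.8 CPM in the mutant, against 106, 57.9 and 93.4 CPM in the wild type. The groups overlapped, with wild-type replicate 2 far below the others. On the log2 scale the fold change was 0.39 (SE 0.23, 95% interval -0.15 to 0.93, edgeR adjusted p = 0.342), and 0.18 without wild-type replicate 2. A rise of up to 1.91-fold thus lay within the interval, and a fall of more than 1.11-fold did not. On the other strand trz1 covers 14.2% of lkh1.

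The spliceosomal kinase gene prp4, which encodes an essential kinase that phosphorylates the tri-snRNP protein Prp1, had the lowest mean FPKM of the members in the wild type. It had 36.5, 34.3 and 26.5 CPM in the mutant, against 33.5, 22.04 and 30.3 CPM in the wild type. The libraries of the groups were intermixed. Its log2 fold change was 0.18 (SE 0.20, 95% interval -0.29 to 0.66, edgeR adjusted p = 0.609), and 0.03 without wild-type replicate 2.

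The summed FPKM of the 3 kinase genes was 52.4, 55.2 and 37.5 in mutant libraries, against 75.3, 51.2 and 72.1 in wild-type libraries. Of this sum dsk1 made up 8.59%, 6.81% and 9.39% in mutant libraries, against 42.4%, 55.9% and 45.3% in wild-type libraries. The sums of the groups overlapped only through wild-type replicate 2, which lay below 2 of the mutant libraries.

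Srp1 is a nonessential SR protein that the deposited annotation names as an orthologue of human SRSF2 (written there as SRFS2). It had 235, 249 and 287 CPM in the mutant, against 246, 272 and 247 CPM in the wild type, with full overlap. The difference on the log2 scale was 0.014 (SE 0.12, 95% interval -0.27 to 0.30, edgeR adjusted p = 0.950), so changes beyond 1.23-fold upward or 1.20-fold downward lay outside the interval. Without wild-type replicate 2 the difference was 0.06.

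The srp2 gene, for an essential SR protein that the deposited annotation describes as an mRNA export factor, was the most abundant member. It stood at 679, 721 and 778 CPM in the mutant, against 758, 893 and 701 CPM in the wild type. Apart from the high wild-type replicate 2, the libraries covered the same range. Its log2 fold change was -0.11 (SE 0.14, 95% interval -0.44 to 0.22, edgeR adjusted p = 0.646), and -0.0057 without that library. Per length, srp2 exceeded srp1 by 2.65, 2.65 and 2.48 times in the mutant libraries, against 2.83, 3.01 and 2.60 times in the wild type, which overlap.

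The rsd1 gene, for an RNA-binding protein with the most RS and SR dipeptides of the 8, had 143, 159 and 165 CPM in the mutant, against 183, 177 and 154 CPM in the wild type. Wild-type replicate 3 lay within the range of the mutant. On the log2 scale the difference was -0.14 (SE 0.12, 95% interval -0.42 to 0.14, edgeR adjusted p = 0.501), and -0.11 without wild-type replicate 2. Its interval and that of srp1 were the narrowest among the 7 genes other than dsk1.

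The subunits of U2AF differed in sign, and neither passed. For prp2, the large subunit, the mutant had 247, 248 and 276 CPM, against 274, 374 and 246 CPM in the wild type. The 3 mutant libraries were tight, and wild-type replicate 2 alone was high. The log2 fold change was -0.21 (SE 0.17, 95% interval -0.61 to 0.18, edgeR adjusted p = 0.466), and -0.015 without that library. On the other strand tif1102 covers 17% of prp2.

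For uaf2, the small subunit, the mutant had 144, 146 and 186 CPM, against 133, 94.1 and 158 CPM in the wild type. Wild-type replicate 2 was again the extreme library, here the lowest. The uaf2 log2 fold change was 0.31 (SE 0.20, 95% interval -0.17 to 0.78, edgeR adjusted p = 0.390), and 0.13 without it. The ratio of uaf2 to prp2 in FPKM was 1.32, 1.32 and 1.53 in mutant libraries, against 1.10, 0.568 and 1.45 in wild-type libraries. The mutant values lay close together, while wild-type replicate 2 was the only library in which the small subunit transcript was less abundant per length than the large.

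**Figure D2:**
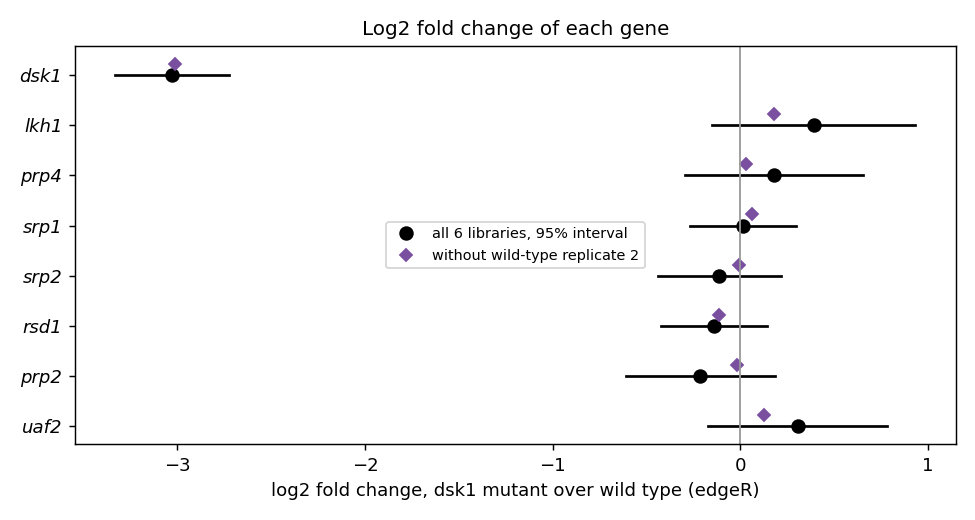
Log2 fold change of each gene, dsk1 mutant over wild type (x axis), from edgeR with all 6 libraries (black point, with the 95% interval as a line) and without wild-type replicate 2 (purple diamond). The interval of dsk1 runs from -3.33 to -2.73, the other 7 intervals include 0, and without wild-type replicate 2 the values of those 7 lie between -0.11 and 0.18.

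For several members, wild-type replicate 2 lay further from the other wild-type libraries than the groups lay from each other. Set against the mean of the other wild-type libraries, on the log2 scale, it was at -0.78 for lkh1, -0.63 for uaf2 and -0.53 for prp4. It was at 0.53 for prp2, 0.29 for srp2, 0.14 for srp1, 0.07 for rsd1 and 0.04 for dsk1. Deviations as large as that of lkh1 were found in 15.3% of all tested genes, and as large as that of prp2 in 32.2%. The coefficient of variation of lkh1 was 16.1% in the mutant and 29.0% in the wild type. That of uaf2 was 15.1% in the mutant and 24.97% in the wild type, and that of prp2 was 6.32% in the mutant and 22.6% in the wild type. For dsk1 it was 10.3% in the mutant and 1.44% in the wild type. The part of this library in the differences was not tested beyond leaving it out.

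Ordered by level per length, only srp2 and rsd1 took the same place in both groups. In the wild type dsk1 was at place 6 and uaf2 at 4, in the mutant at 8 and 2. In the mutant, mean FPKM was 414 ± 14.97 for srp2, 188 ± 15.9 for uaf2, 160 ± 8.03 for srp1, 135 ± 1.33 for prp2, 59.1 ± 3.60 for rsd1, 26.7 ± 5.75 for lkh1, 17.8 ± 3.81 for prp4 and 3.93 ± 0.51 for dsk1 (SD, n = 3). No neighbours in that order had overlapping libraries, though the lowest lkh1 library (20.6 FPKM) was close to the highest prp4 library (20.4 FPKM). In the wild type the order was srp2 at 431 ± 20.1 FPKM, then srp1 at 154 ± 4.17, prp2 at 151 ± 21.0 and uaf2 at 150 ± 47.4, then rsd1 at 63.1 ± 6.10, dsk1 at 31.0 ± 2.11, lkh1 at 19.9 ± 6.93 and prp4 at 15.2 ± 4.12 (SD, n = 3). There the libraries of srp1, prp2 and uaf2 overlapped, and only wild-type replicate 2 had uaf2 below srp1. The libraries of lkh1 and prp4 overlapped as well, though within each wild-type library lkh1 was the higher, by 1.37, 1.14 and 1.34 times. The dsk1 transcript lay above 8.22% of all genes in the mutant and above 43.2% in the wild type. The summed FPKM of the 5 RNA-binding protein genes was 917, 972 and 979 in mutant libraries, against 965, 930 and 952 in wild-type libraries, with overlap.

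**Figure D3:**
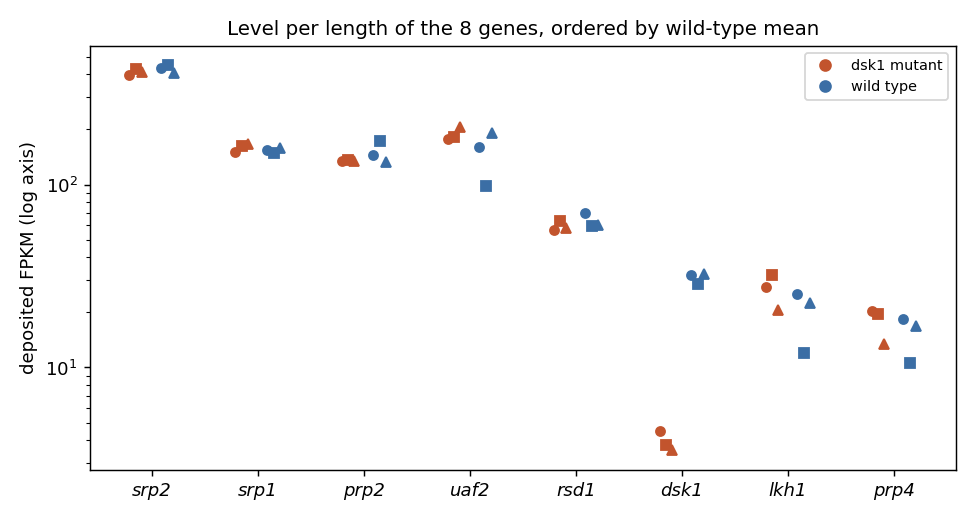
Deposited FPKM of the 8 genes on a log axis, ordered by the wild-type mean, with the dsk1 mutant in orange left of the wild type in blue and 3 libraries per group (marker shape as replicate 1, 2 and 3 by circle, square and triangle). The RNA-binding protein genes lie between 56.1 and 449 FPKM and the kinase genes below 33 FPKM, and dsk1 lies at 3.52 to 4.50 FPKM in the mutant, below all other points.

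The authors' deposited table gives a log2 ratio of mean FPKM of -2.98 for dsk1 with an adjusted p of 4.60e-92. In the authors' deposited table the other members have log2 ratios from -0.16 (prp2) to 0.42 (lkh1), with adjusted p between 0.336 and 0.953. For every member the deposited adjusted p equals that of the DESeq2 fit made here, so these do not count as separate tests. Of the 135 genes in the authors' deposited table of filtered genes, dsk1 is the 1 member.

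The genes beside dsk1 on chromosome II were compared in the same fit. Of the 3 genes on either side, edgeR called 0, against 0.441% of all tested genes higher and 1.58% lower. DESeq2 called 1 lower, as it did 7.1% of all genes. With edgeR, 3 of the 6 were lower and 0 higher at p under 0.05 before adjustment, against 13.5% lower and 9.2% higher over all tested genes. The groups did not overlap for 5 of the 6, against 32.1% of all tested genes. A log2 fold change below 0 was found in 5 of the 6, as in 2494 of 4987 tested genes. The median of the 6 was -0.18, and -0.30 with the exon length trend removed. The lowest adjusted p was that of SPBC36.01c, a predicted spermidine family transporter. It had 172, 155 and 135 CPM in the mutant, against 212, 291 and 202 CPM in the wild type (log2 fold change -0.61, SE 0.17, edgeR adjusted p = 0.109). All mutant libraries lay below all wild-type libraries. Its neighbour SPBC36.02c, annotated alike, was at 4.96 CPM in the mutant and 10.2 CPM in the wild type on average (log2 fold change -1.04, adjusted p = 0.144). Nearest to the 5' end of dsk1, SPBC530.15c was at 295 CPM in the mutant and 314 CPM in the wild type (-0.09, adjusted p = 0.614). On the other side, lsc1, of which dsk1 covers 69.9%, had 22.5, 25.7 and 22.8 CPM in the mutant, against 18.3, 9.41 and 22.05 CPM in the wild type (log2 fold change 0.51, SE 0.29, adjusted p = 0.325). Its groups did not overlap, and the fold change was 0.23 without wild-type replicate 2. Since the use of strand in counting is not stated, reads from the shared stretch cannot be told apart between dsk1 and lsc1. The pdf1 gene, for a fused thioesterase and phosphatase, was at -0.08, and the predicted transcription factor gene SPBC530.11c at -0.27 without passing.

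Proteins that meet SR proteins and U2AF at the splice sites were followed as a list of U1 and U2 snRNP and branch point proteins. Of 20 tested, 0 were called with edgeR, against 0.441% of all tested genes higher and 1.58% lower. With DESeq2 2 were called, against 4.01% of all genes higher and 7.1% lower. Before adjustment, 3 were higher and 3 lower at p under 0.05, where 9.2% of all tested genes were higher and 13.5% lower. The median log2 fold change was 0.06, against -0.00032 over all genes tested, with 13 above 0. The U1-associated gene usp109 was at 49.1 ± 1.09 CPM in the mutant and 71.9 ± 10.5 CPM in the wild type (SD, n = 3), a log2 fold change of -0.55 (SE 0.14, adjusted p = 0.0821), and gmh6 covers 27.6% of it on the other strand. Another U1-associated gene, usp104, had 181, 204 and 168 CPM in the mutant, against 94.1, 43.2 and 136 CPM in the wild type (log2 fold change 1.02, SE 0.36, adjusted p = 0.162). DESeq2 called both of these, and so did edgeR without wild-type replicate 2, which then called 3.3% of all genes higher and 6.02% lower. In that fit usp109 was at -0.42 (adjusted p = 0.0392) and usp104 at 0.68 (adjusted p = 0.0368). For usp108, at 0.30 (adjusted p = 0.182), arp42 on the other strand covers the whole gene, so its counts are uncertain.

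The tri-snRNP, the complex on which Prp4 acts, had 11 genes tested. Of these, 0 were called with edgeR, against 0.441% of all tested genes higher and 1.58% lower. With DESeq2 2 were called (cwf10 higher, prp38 lower). DESeq2 called 4.01% of all genes higher and 7.1% lower. Before adjustment, 1 was higher and 3 were lower at p under 0.05, beside 9.2% and 13.5% of all tested genes. The median was -0.23. The largest difference was in prp38, at 15.3, 15.6 and 16.2 CPM in the mutant, against 29.3, 105 and 22.4 CPM in the wild type. The mutant libraries were nearly equal, and wild-type replicate 2 was far above every other library. Its log2 fold change of -1.73 (SE 0.55, adjusted p = 0.133) was -0.72 without that library and then passed (edgeR adjusted p = 0.0266). The list median was -0.08 without that library and -0.11 with the exon length trend removed. The U5 GTPase gene cwf10 was at 0.36 (SE 0.11, adjusted p = 0.119), and prp31 at -0.30 (SE 0.11, adjusted p = 0.176).

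Dsk1, Lkh1 and Prp4 belong to the CMGC group of kinases, and 17 other genes of that group were tested. With edgeR 0 were called, against 0.441% of all tested genes higher and 1.58% lower. DESeq2 called 1 higher (4.01% of all genes were) and 0 lower (7.1% were). Limma called 0, where it called 16 to 20 genes higher and 73 to 76 lower over the whole table. Before adjustment, 3 were higher (9.2% of all tested genes) and 1 was lower (13.5%) at p under 0.05. Above 0 lay 14 of 17, with a median of 0.24, against 49.99% of all tested genes. The median was 0.13 without wild-type replicate 2. The lowest adjusted p was that of spk1, the MAP kinase of the mating pheromone response. It was at 44.8, 48.6 and 39.1 CPM in the mutant, against 24.0, 12.6 and 24.4 CPM in the wild type (log2 fold change 1.11, SE 0.26, adjusted p = 0.0709). It was at 0.87 and passed without wild-type replicate 2 (edgeR adjusted p = 0.00928), and hem4 covers 77.3% of it on the other strand. The kinase gene of TFIIH, mcs6, was at -0.39 (adjusted p = 0.184), and pom1, for a kinase at cell ends, at 0.34 (adjusted p = 0.198).

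**Figure D4:**
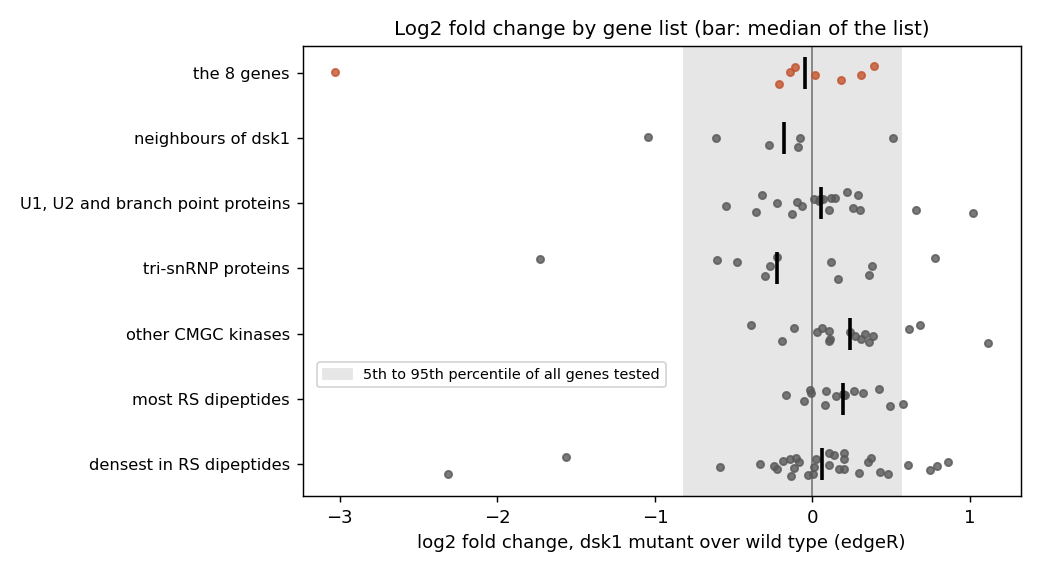
Log2 fold change, dsk1 mutant over wild type (x axis), of each tested gene in the lists, 1 row a list, with the list median as a black bar, the 8 genes in orange and the band from the 5th to the 95th percentile of all tested genes (-0.82 to 0.56) in grey. Apart from dsk1 the 8 genes lie inside the band, and the list medians lie between -0.23 and 0.24.

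Genes whose products share the RS content were compared last. The 15 proteins with the most RS or SR dipeptides apart from the members, many of them very long, had 0 called genes with edgeR. Over all tested genes edgeR called 0.441% higher and 1.58% lower, so 0 of 15 says little. Before adjustment, 0 of the 15 had an edgeR p under 0.05, beside 9.2% (higher) and 13.5% (lower) of all tested genes. DESeq2 called 0 of them, beside 4.01% of all genes higher and 7.1% lower. Limma also called 0, and 16 to 20 genes higher and 73 to 76 lower over the whole table. The groups did not overlap for 2 of the 15, against 32.1% of all tested genes. The list median was 0.20. That median was 0.05 without wild-type replicate 2 and 0.02 with the exon length trend removed. The splicing factor gene cwf22, named for its lowest p in the list, was at 121 ± 3.70 CPM in the mutant and 106 ± 4.76 CPM in the wild type (SD, n = 3, log2 fold change 0.20, edgeR adjusted p = 0.289). A second list, chosen after results were known, held 34 proteins of at least 100 residues with at least 3 such dipeptides per 100 residues. Of its 32 tested genes edgeR called 0 higher and 1 lower, against 0.441% and 1.58% of all tested genes. The 1 called was SPBC1271.08c, a fission yeast-specific protein of unknown function. That gene was at 26.5, 27.1 and 19.9 CPM in the mutant, against 116, 160 and 89.6 CPM in the wild type, a log2 fold change of -2.31 (SE 0.24, edgeR adjusted p = 0.0117). It was not called when any of the 3 mutant libraries was left out. Those fits called 1 or 2 genes higher and 2 to 5 lower over the whole table. Under every other alternative SPBC1271.08c was called lower. DESeq2 called 3 genes of this list higher (SPAP8A3.13c, SPCPB16A4.06c and pal1) and 2 lower (SPBC1271.08c and SPCC13B11.02c). Over all genes it called 4.01% higher and 7.1% lower. Without wild-type replicate 2, edgeR called the same genes apart from pal1, 2 higher and 2 lower. That fit called 3.3% of all genes higher and 6.02% lower. The median of this list was 0.06. Of 2415 tested genes with at least 1 intron, 5 were called higher and 39 lower (1.82% called), with a median of -0.02. Of 2536 without an intron, 15 were called higher and 38 lower (2.09% called), with a median of 0.02. Over all tested genes 2.03% were called, 0.441% higher and 1.58% lower. The median of intron genes was 0.02 when only library totals were used for scaling, and 0.0055 without wild-type replicate 3. With limma on FPKM it was 0.029 to 0.033. Its sign thus depends on the scaling and on the libraries used.

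The tested genes whose levels over the 6 libraries were most like those of dsk1 were SPBC8E4.05c (fumarate lyase superfamily), SPAC11D3.02c (predicted acetyltransferase), SPBC83.12 (unknown function), SPAC212.04c (DUF999 family) and SPAC11D3.01c (conserved fungal protein). Their Pearson r with dsk1 on the log2 CPM scale was 0.995, 0.994, 0.992, 0.991 and 0.988, among genes with at least 5 CPM on average. The libraries form 2 groups, so these values mainly say that the genes were lower in the mutant with little spread within a group. SPAC11D3.02c was at 42.1, 42.2 and 42.1 CPM in the mutant, against 84.9, 77.2 and 84.4 CPM in the wild type (log2 fold change -0.96, SE 0.11, edgeR adjusted p = 0.0159). SPAC212.04c was at 1.36, 1.72 and 1.01 CPM in the mutant, against 33.6, 25.9 and 32.8 CPM in the wild type, and belongs to a multigene family in which the authors' counting could split reads, so its value is uncertain. None of the members was among these genes.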

How the data were processed

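RNA of 3 dsk1 mutant and 3 wild-type libraries was grouped by the genotype label. Tools listed in the submitters' processing notes, without version or role, are HISAT2, StringTie, RSEM, Bowtie2, fastp and DESeq2. Build and strand setting: not given in the sources used here. The authors deposited, per the file headers, counts, FPKM, a log2 ratio of mean FPKM, and a p-value and adjusted p per gene. How counts became whole is not stated.

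The model for the counts was edgeR 4.0.16 (R 4.3.3) with its quasi-likelihood test (TMM scaling, default filter, genotype as the only term). P-values were adjusted by Benjamini-Hochberg over 4987 genes and called under 0.05, and every adjusted p comes from this fit unless another tool is named. The test was checked on simulated counts with the same dispersion (spread beyond counting noise) for every gene and no outlying library. That check does not cover a library set apart like wild-type replicate 2. Alternatives were DESeq2 1.42.0, limma 3.58.1 on log2(FPKM + 1) and log2(FPKM + 0.1), other scaling and filters, removal of an exon length trend, a block for the replicate number, and each library left out.

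RefSeq ASM294v3 matched 5109 of 5160 entries and gave names, structure, overlaps and sequences, and no coordinates are printed because the authors' build is unknown. Coding sequences from its annotation were translated for dipeptide counts. Totals were 15700362 to 19020530 counts. No library copied another (chi-square per degree of freedom 26.7 to 280 between replicates). Each SE was derived from the edgeR test, as the size of the log2 fold change over the square root of the F statistic. Intervals are the log2 fold change plus or minus that SE times a t quantile, an approximation. The 8 genes, the lists and the naming rule (all members and neighbours, up to 3 genes a list by p, 5 genes most like dsk1) were chosen with earlier results of these data known.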

Additional observations from a re-analysis of the deposited data

How the results depend on the processing

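The log2 fold change of dsk1 stayed called under all 16 alternatives, between -3.14 and -2.70, with an adjusted p between 4.60e-92 and 0.0243. The other 7 members gave 112 values under these alternatives, of which 0 were called, with a smallest adjusted p of 0.172. Of these 112, 3 changed sign, all for srp1, which ranged from -0.0727 to 0.0748 when each library was left out in turn (-0.0727 without mutant replicate 3, -0.0078 without wild-type replicate 1 and -0.0087 without wild-type replicate 3). The number of genes called over the whole table varied between the alternatives. It was 205 higher and 363 lower with the DESeq2 Wald test, and it ran from 1 to 165 higher and from 2 to 301 lower when a library was left out, the highest counts without wild-type replicate 2. With the replicate block, 0 genes were called higher and 3 lower. Where a fit called so few genes, 0 called among the other 7 members says little about them. The replicate numbers were not taken as pairs, since same-numbered libraries deviated together with r = 0.17, -0.36 and -0.19. Of 112 list medians under the alternatives, 20 moved by more than the spread between mutant libraries. With 3 libraries a group, a change of less than about the interval width given for each member was not detectable at this depth and spread.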
